A study of Mus musculus with 2 samples.

Results

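Border-associated macrophages were described in single-cell RNA profiles of mouse brain that carried an intracranial graft of KR158, a mouse glioblastoma (GBM) line. A cell was taken as a member when at least 3 of 7 macrophage genes (Mrc1, Pf4, Cd163, Lyve1, Cbr2, Ms4a7 and F13a1) had a UMI, a UMI being 1 tagged RNA molecule. It also had at most 2 of 5 microglial genes (P2ry12, Tmem119, Siglech, Gpr34 and P2ry13) and at most 1 of Cldn5, Mog, Aqp4, Dcx and Cd3e, which mark other brain cells and T cells. Cells first had to hold at least 1000 UMIs and 500 genes, with at most 10% mitochondrial UMIs. This gave 134 members of 13466 kept cells, 82 of 8068 in the control library and 52 of 5398 in the cKO library. The members were thus chosen by measured UMIs of these 17 genes, whose values are given as a description only.

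Each group was 1 library. The control host was Cx3cr1 CreER/+ Plxnb2 fl/+, so it carried 1 floxed copy of Plxnb2 although its title calls it WT. The cKO host was Cx3cr1 CreER/+ Plxnb2fl/fl. Both hosts, on a C57BL/6 background per the series' design text, thus carried the tamoxifen-inducible Cre in 1 copy of Cx3cr1, and both received tamoxifen (100 mg/kg) from 3 days before the graft, every other day until 8 weeks after it. Tissue within about 1 mm of the injection site was dissociated with papain, cleared on Percoll and run on a 10x Genomics 3' kit, with no sort for macrophages in the protocol. The Cre is expressed by microglia and by other Cx3cr1-expressing myeloid cells, so the deletion is not limited to microglia. Sex, age and the number of animals per library were not in the sources used here. With 1 library per group no difference between hosts has a replicate check, no test was made, and genotype and library cannot be told apart.

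Border-associated macrophages are the resident macrophages of the meninges, the perivascular spaces and the choroid plexus, whereas microglia lie in the parenchyma. They carry scavenger and lectin receptors that take up material from cerebrospinal fluid and blood, and they include cells with high Lyve1, a hyaluronan receptor, and cells with high MHC class II. Plexin-B2, encoded by Plxnb2 (GRCm38 chr15:89155549-89180788 in GENCODE vM21, minus strand), is a receptor for class 4 semaphorins and acts on the cytoskeleton and on cell adhesion.

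Members held 413817 UMIs in all in the control library and 256479 in the cKO library. The median member had 3658 and 3345.5 UMIs, with the highest at 67070 and 25520. Microglia, the class used for comparison (at least 3 of the 5 microglial genes at most 1 of the 7 macrophage genes and at most 1 of the 5 other-cell genes), numbered 1883 and 923, with medians of 3680 and 5301 UMIs. Of the kept cells, 8 barcodes occurred in both libraries and none of those was a member. Genes that resemble ribosomal RNA took 3.61% of the members' UMIs in control and 1.97% in cKO. A doublet caller, Scrublet, marked 3 of 82 and 2 of 52 members. Levels below are CPM, UMIs of a gene per 1000000 UMIs summed over the cells named. Intervals are exact 95% intervals that cover counting error only, and cells of 1 library are not replicates.

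The rule fixed that members carry the 7 macrophage genes, and markers of other immune cells, which it used only for Cd3e, were few. Summed over the 7 genes of the rule, the level was 5906 CPM in control members and 7525 CPM in cKO members (the first gene of the rule, Mrc1, was at 4.63 and 6.73 CPM in microglia). Over the 60 control and 38 cKO members with none of the 5 other-cell genes it was 9156 and 9964 CPM, which are closer to each other. Of 7 monocyte markers, Plac8 and Chil3 were at 0 in both libraries. The list summed to 48.3 and 39.0 CPM, against 15.0 and 31.7 CPM in microglia. Ccr2, of this list, had 13 control and 7 cKO UMIs, all in members without a Lyve1 UMI. Of 8 dendritic cell markers, Flt3, Xcr1, Clec9a, Itgax and Ccr7 were at 0 in both. The list summed to 45.9 and 70.2 CPM, against 15.4 and 16.4 CPM in microglia. Cd209a, of this list, had 8 UMIs in control members with a Lyve1 UMI and 6 in the others. In cKO members it had 14 and 0. The T cell list summed to 0 and 3.90 CPM and the NK cell list to 0 in both.

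Transcripts of non-immune cells were present in most members and differed between the libraries. After thinning to 1000 UMIs, 78.0% of control and 73.1% of cKO members had a UMI of such markers, and every control member had choroid plexus transcripts. A total of 22 of 82 control members and 14 of 52 cKO members had a UMI of 1 of the 5 other-cell genes. In the control library these were Aqp4 (astrocytes, 9 cells), Mog (oligodendrocytes, 8 cells) and Cldn5 (endothelium, 5 cells). In the cKO library they were Cldn5 in 13 cells and Aqp4 in 1. The endothelial list was 215 CPM in control and 2920.3 CPM in cKO members, the oligodendrocyte list 4792 and 593 CPM, the astrocyte list 1646 and 476 CPM, and the choroid plexus list 32630.4 and 31.2 CPM. Over the 60 control and 38 cKO members with none of the 5 genes, called the smaller set from here on, these levels were 159 and 37.1 CPM for endothelium and 562 and 668 CPM for oligodendrocytes. They were 587 and 291 CPM for astrocytes and 1769.5 and 6.18 CPM for choroid plexus. The smaller set thus still held such transcripts, and values between the libraries are given for both sets. The part of these transcripts in the results was not tested.

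**Figure D1:**
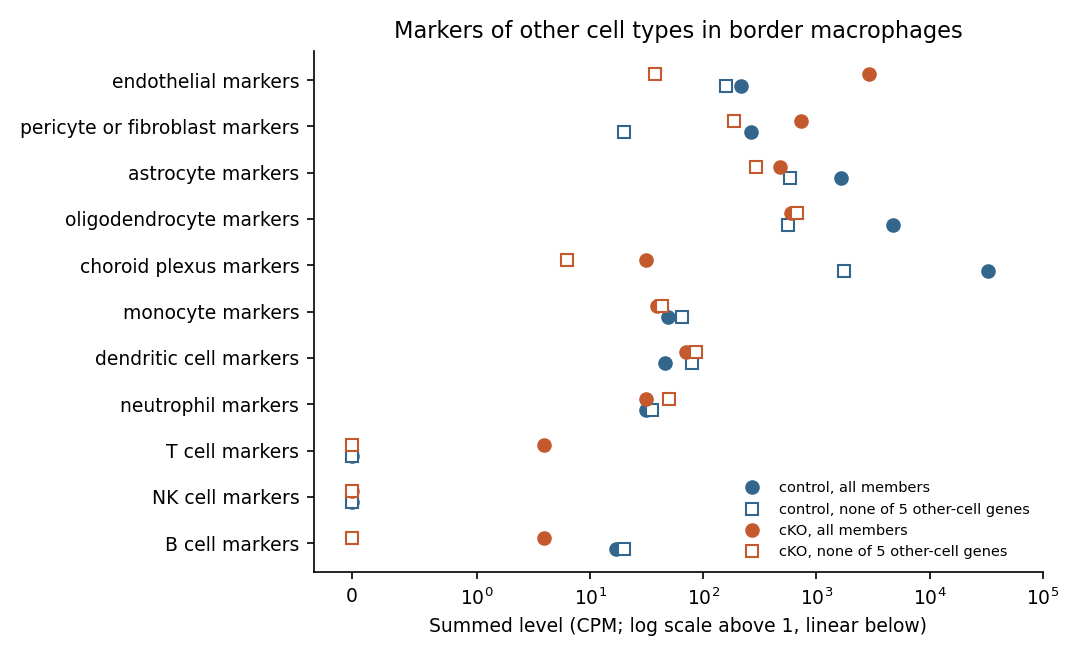
Summed level (CPM; log scale above 1) of marker lists of other cell types in border-associated macrophages. Filled circles are all 82 control and 52 cKO members, open squares the 60 and 38 with none of Cldn5, Mog, Aqp4, Dcx and Cd3e. The endothelial list is 215 CPM in control and 2920.3 CPM in cKO members and falls to 159 and 37.1 CPM in the smaller set.

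At the edges of the rule, the members with exactly 3 macrophage genes (14 and 11 cells) had Lyz2, a lysozyme of macrophages, at 5678 CPM in control and 6427 CPM in cKO. The cells with exactly 2 such genes, left outside (6 and 17 cells), had 306 and 332 CPM. Cells left out for 3 to 5 microglial genes (36 and 15 cells) had Lyz2 at 7266 and 2749 CPM. Members with 2 microglial genes (29 and 21 cells) had Lyz2 at 7402 and 8138 CPM. Lyz2 thus did not separate the control cells on either side of this edge, and 34 control and 20 cKO members had 1 microglial gene. Members with 1 of the 5 other-cell genes (22 and 14 cells) had lower Lyz2, at 2098 and 2532 CPM. Cells left out for 2 or more such genes (6 and 2 cells) had 2000 and 19075 CPM. Lyz2 did not separate the control cells at this edge either. At the lower edge, the members with exactly 3 macrophage genes had Cd74, the MHC class II invariant chain, at 6553 and 6739 CPM, against 1742 and 2031 CPM over all members.

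Against microglia of the same library, of 10828 genes tested outside the rule, 292 were at least 2-fold higher in members in both libraries (2.7%) and 694 were at least 2-fold lower in both (6.41%). These values describe the class and are not a test of it, since the rule separated the same cells. The 12 genes with the highest ratios were Mgl2, Clec4n, Cd209g, Cd209f, Clec10a, Fcna, Ccl8, Folr2, Wfdc17, Cd36, Clec12a and Aoah. With the smaller set, 297 genes were higher (2.76%) and 864 lower (8.02%) in both libraries, of which 198 and 371 were the same genes as with all members.

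Mgl2 and Clec10a, a pair of galactose-binding lectins, were present in the members and nearly absent from microglia. Other kept cells were left out of this comparison. Clec10a stood at 304 CPM against 0.594 CPM in the control library and 752 against 0.518 CPM in the cKO library. It was 512-fold and 1454-fold higher than in microglia. Mgl2 stood at 208 CPM against 0.238 CPM in the control library and 519 against 0.173 CPM in the cKO library, with log2 ratios of 9.77 (7.88 to 12.84) and 11.55 (9.05 to 16.87) that rest on 2 and 1 microglial UMIs. Clec4n, the lectin Dectin-2, had 102 UMIs in control members and 0 in control microglia, so it was at least 691-fold higher there. The lower bounds for Mgl2 lie far above 2-fold in both libraries.

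Uptake receptors followed the same direction. Folr2, a folate receptor of resident macrophages, stood at 215 CPM against 0.713 CPM in the control library and 343 against 0.173 CPM in the cKO library. Stab1, a scavenger receptor, stood at 1261 CPM against 195 CPM in the control library and 1532 against 231 CPM in the cKO library, and Dab2, a clathrin adaptor, at 735 CPM against 15.0 CPM in the control library and 971 against 24.0 CPM in the cKO library. These receptors spanned very different ratios, from 2.69 and 2.73 on the log2 scale for Stab1 to 8.24 and 10.96 for Folr2. Of 21 scavenging and endocytosis genes tested, 10 were at least 2-fold higher in both libraries, with median log2 ratios of 1.08 and 1.12. A further 2 were lower, near the share over all genes tested (2.7% higher and 6.41% lower). The lower ones were Mertk, a receptor for apoptotic cells, at log2 -2.16 and -1.28, and Lrp1, an endocytic receptor, at -1.70 and -2.09.

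Among secreted proteins, the chemokine Ccl8 stood at 706 CPM against 0.475 CPM in the control library and 577 against 1.21 CPM in the cKO library. Ccl24, an eosinophil-recruiting chemokine, stood at 304 CPM against 4.63 CPM in the control library and 324 against 10.4 CPM in the cKO library, and Ccl7, a monocyte-recruiting chemokine, at 213 CPM against 2.85 CPM in the control library and 526 against 13.3 CPM in the cKO library. In contrast, Ccl3 and Ccl4, which microglia of both libraries expressed at higher levels, had log2 ratios of -1.98 and -1.84 and of -3.11 and -5.45. Chemokine genes thus went both ways, 3 of 15 higher and 3 lower in both libraries, beside 2.7% and 6.41% over all genes tested. With the smaller set 6 were higher and 3 lower, beside 2.76% and 8.02%. Of the complement genes, Cfp (properdin) stood at 123 CPM against 1.31 CPM in the control library and 175 against 2.24 CPM in the cKO library and C4b at 321 CPM against 9.86 CPM in the control library and 269 against 16.7 CPM in the cKO library.

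Of 32 border macrophage genes tested outside the rule, 28 were at least 2-fold higher in members in both libraries and 1 was at least 2-fold lower. Over all genes tested these shares were 2.7% and 6.41%. The medians were 3.38 and 3.57, beside -0.17 and -0.18 over all genes tested. Lyz2 stood at 5780.3 CPM against 434 CPM in the control library and 5763 against 397 CPM in the cKO library and Maf, a transcription factor of resident macrophages, at 2332 CPM against 1118 CPM in the control library and 2799 against 1325 CPM in the cKO library. Ms4a6d, Slc40a1 and Hpgd did not pass in both libraries, with log2 ratios of 0.81 and 1.24, 0.078 and 1.08 and 0.074 and 0.73. Most but not all genes of the list thus marked the members in both libraries.

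Microglial genes outside the rule were low in members. Of 23 tested, 17 were at least 2-fold lower in both libraries and none was higher, beside 6.41% and 2.7% over all genes tested. Sall1, the transcription factor that marks microglial identity, stood at 2.42 CPM against 315 CPM in the control library and 3.90 against 284 CPM in the cKO library, which is 1 UMI in the members of each library. Cx3cr1, the fractalkine receptor and the Cre locus, stood at 360.1 CPM against 3817 CPM in the control library and 226 against 1856 CPM in the cKO library. Fcrls, Ltc4s, P2ry6, Csf1r, Hpgds and Mef2c did not pass in both libraries. Csf1r, the receptor for the survival factor of all tissue macrophages, was at log2 -1.24 and -0.38. Among the 8 genes with the lowest ratios were Sall1, Olfml3, Golm1, Abi3, Selplg, Lhfpl2 and Slc2a5.

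**Figure D2:**
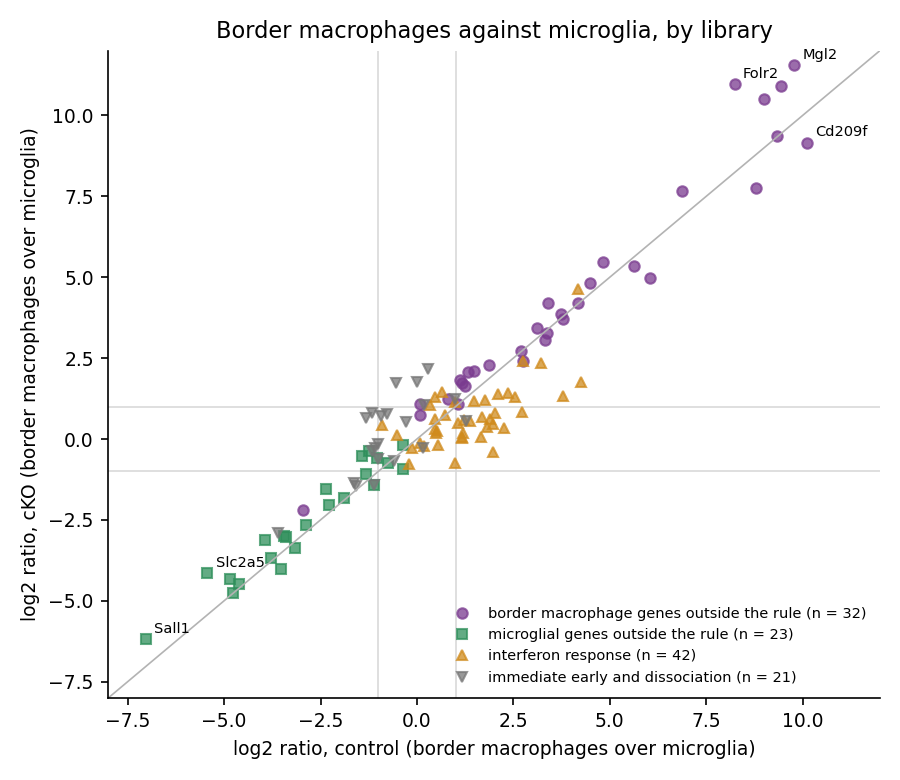
log2 ratio of CPM in border-associated macrophages over microglia, in the control library (x axis) and the cKO library (y axis), for tested genes of 4 lists. Each point is a gene, the diagonal marks equal ratios and the pale lines mark 2-fold. Border macrophage genes (28 of 32 higher in both) and microglial genes (17 of 23 lower in both) lie along the diagonal. Over all genes tested, 2.7% were higher and 6.41% lower in both. The interferon response genes have a lower median on the y axis (0.58) than on the x axis (1.21).

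MHC class II, which presents extracellular antigen to CD4 T cells, was high in a minority of members. H2-Aa stood at 768 CPM against 36.1 CPM in the control library and 869 against 12.6 CPM in the cKO library, H2-Ab1 at 672 CPM against 40.8 CPM in the control library and 928 against 21.6 CPM in the cKO library, H2-Eb1 at 904 CPM against 29.5 CPM in the control library and 842 against 10.2 CPM in the cKO library and Cd74, the invariant chain, at 1742 CPM against 124 CPM in the control library and 2031 against 97.5 CPM in the cKO library. The share of these 4 genes in a cell's UMIs had a median of 0% in control and 0.0111% in cKO members, with the highest cells at 5.72% and 5.80%. The members at 2% or more, 10 control and 5 cKO cells, held 86.2% and 83.9% of these UMIs. Most class II UMIs were thus in a few cells of each library. These lay near the limit of the rule, since 10 of the 12 control and 3 of the 5 cKO members at 1% or more had only 3 or 4 macrophage genes, as had 31 of 82 and 20 of 52 members in all. After every cell was thinned to 1000 UMIs, 31.7% of control and 38.5% of cKO members had a class II UMI, against 4.51% and 6.28% of microglia.

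Lyve1 is a gene of the rule, so a split of members by it is a description only, and cells that entered with few macrophage genes lack it more often. Of the 12 control members with class II at 1% of UMIs or more, 1 had a Lyve1 UMI, and of the 5 such cKO members 1 had. A further 5 cells in each library lay between 0.5 and 1%. Lyve1 UMIs occurred in 32 of 82 control and 18 of 52 cKO members. In the control library H2-Aa was 160 CPM in the cells with Lyve1 and 1188 CPM in the others, a log2 ratio of -2.89. In the cKO library it was 431 and 1274 CPM, a log2 ratio of -1.57. H2-Ab1, H2-Eb1 and Cd74 had lower CPM in the cells with Lyve1 as well, at log2 ratios of -2.87, -2.98 and -1.89 in control and -1.79, -2.02 and -1.69 in cKO. The cells with Lyve1 were deeper, with medians of 4904 against 2624.5 UMIs in control and 4615 against 2910.5 in cKO, and the part of depth and of the rule in this split was not tested.

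In the same split, Folr2 was at log2 1.89 in control and 1.00 in cKO, cells with Lyve1 over the others. Cd209f, a lectin, was at 1.81 and 1.51. Ccl24 went opposite ways, at 1.97 in control and -1.18 in cKO. Across members, the genes whose level was most correlated with the class II share in both libraries were Cd52, a small surface glycoprotein, with Spearman's rho of 0.60 over 82 control cells and 0.44 over 52 cKO cells, then Cx3cr1, Ctss, Ifi27l2a and Mpeg1 (lowest rho 0.27). The most negative were Clec4n at -0.44 and -0.37, Slc40a1, Wfdc17, Selenop and Emc10. These coefficients come from sparse counts of cells that share a library, and are given as a description.

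**Figure D3:**
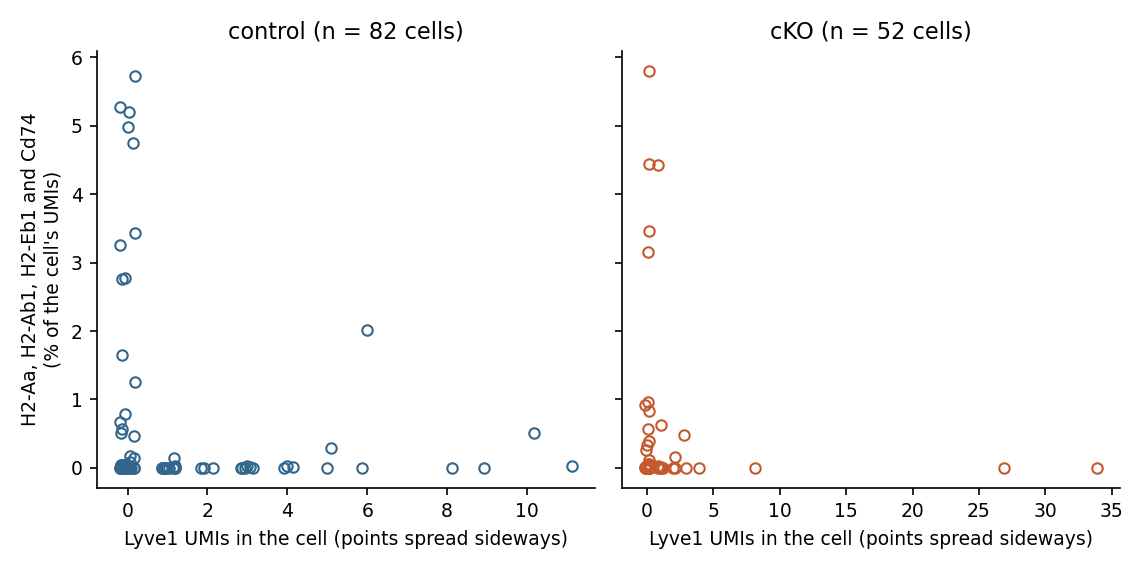
Share of a cell's UMIs from H2-Aa, H2-Ab1, H2-Eb1 and Cd74 (y axis, %) against the Lyve1 UMIs of the cell (x axis, points spread sideways) for 82 control and 52 cKO border-associated macrophages. The cells above 1% sit at 0 Lyve1 UMIs except 1 cell in each library, and the highest reach 5.72% and 5.80%.

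The share of border-associated macrophages among kept cells did not differ between the libraries beyond counting error. It was 1.02% (0.809 to 1.26) of kept cells in control and 0.963% (0.720 to 1.26) in cKO, a difference of -0.0530 percentage points (-0.397 to 0.310). As a share of members plus microglia they were 4.17% (3.33 to 5.15) and 5.33% (4.01 to 6.94), with fewer microglia among kept cells in the cKO library (17.1% against 23.3%).

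Plxnb2, the targeted gene, was at 82.2 CPM (56.9 to 115) in control members and 27.3 CPM (10.97 to 56.2) in cKO members. This is 34 UMIs in 18 cells and 7 UMIs in 5 cells, a log2 ratio of -1.59 (-3.01 to -0.39) for cKO over control. The smaller set gave -1.27 and microglia -2.24. The control host has 1 floxed copy as well, and a 3' tag count does not show whether the floxed exons are present in a transcript, so this count bears on the transcript level only. Oligodendrocytes, which the Cre does not target, had Plxnb2 at 24.2 and 18.8 CPM. What part of these values, or of the 27.3 CPM in cKO members, is background was not tested. Cx3cr1 was at 360.1 CPM (305 to 423) in the control library and 226 CPM (172 to 292) in the cKO library, a log2 ratio of -0.67 (-1.13 to -0.22), and microglia had -1.04.

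Among 3648 genes with at least 30 UMIs over both libraries and UMIs in at least 5 members, 577 differed at least 2-fold between the libraries (15.8%). Of these, 257 were higher (7.04%) and 320 lower (8.77%) in the cKO library. In the smaller set 115 of 1765 genes passed (6.52%), 70 higher (3.97%) and 45 lower (2.55%), and in microglia 126 of 3619 passed (3.48%), 79 higher (2.18%) and 47 lower (1.3%). Without the control member of 67070 UMIs, 11537 of which were Ttr, 418 genes passed in place of 577. In that cell the macrophage genes of the rule made up 0.0119% of UMIs, the lowest of the control members (median 0.714%). Markers of non-immune cells other than Ttr made up 2.36%. It met the rule, but these values do not mark it as a border-associated macrophage. Its UMIs count in every control level given over all members. Members held far fewer UMIs than microglia, so counting error is wider in their ratios and the shares of the 2 classes are not comparable as effects.

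The genes with the largest differences included markers of the other cell types named above. Cldn5 and Ly6c1 are of the endothelial list, and Ttr and Enpp2 of the choroid plexus list. The 8 highest in cKO members were Cxcl12, Cdkn1a, Ly6c1, Cldn5, Siglec1, Tmod3, Epas1 and Acvrl1. Cxcl12, a chemokine of vascular and stromal cells, had 7 UMIs in control and 193 in cKO members, but 5 and 4 in the smaller set. Ly6c1 had 17 and 255 UMIs against 7 and 5, and Epas1 27 and 104 against 6 and 3. The 8 lowest were Ttr, Enpp2, Slc22a17, Cmtm5, Il33, Cryab, Tubb4a and Ptprd. Ttr, transthyretin of the choroid plexus, had UMIs in 82 of 82 control members, 12007 in all and 11537 of them in 1 cell, and none in cKO members, at least 2481-fold lower. In the smaller set, which lacks that cell, it had 333 UMIs and none, at least 89.2-fold lower. It behaved alike in other classes of the same libraries, at 6198 and 1.21 CPM in microglia. Cdkn1a and Siglec1 were past 2-fold in the smaller set too, at 4.77 and 2.60. Tmod3, which caps actin filaments, had 3 and 14 UMIs there, below the minimum, a ratio of 2.54 (0.70 to 4.98).

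Siglec1 (CD169), a sialic-acid-binding receptor of macrophages, was at 24.2 CPM (11.6 to 44.4) in the control library and 172 CPM (125 to 230.3) in the cKO library. UMIs occurred in 9 of 82 and 25 of 52 members, and no cell held more than 4. The log2 ratio was 2.83 (1.82 to 3.98) in all members and 2.60 (1.40 to 4.01) in the smaller set. After thinning to 1000 UMIs, 3.66% of control and 21.2% of cKO members had a UMI. In microglia of both libraries Siglec1 was near 0, with 4 and 25 UMIs in all (0.475 and 4.31 CPM). It was thus higher in many cKO members at a few UMIs each, and not through single cells.

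Interferon response genes, which type I interferon induces through a STAT complex that binds the ISRE motif, were mostly at higher levels in cKO members. Of 26 that passed the minimum, 12 were at least 2-fold higher and none lower in cKO members, beside 7.04% and 8.77% over all genes. Their median log2 ratio was 0.94, beside 0.11 over all genes tested. In the smaller set 14 genes reached the minimum, none passed 2-fold, and their median was 0.41 beside 0.058 over all genes, so the medians of the 2 sets are over different genes. Microglia had 20 of the same 26 genes past 2-fold, with a median of 1.62, beside 2.18% higher over all genes. Without the control member of most UMIs the interferon median of members was 0.61.

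The level per cell gave the same order. The 51 genes of the list made up a median of 0.578% of a control member's UMIs and 0.891% of a cKO member's. The lower quartiles were 0.317% and 0.627%, and the upper ones 0.841% and 1.22%. The smaller set had medians of 0.612% and 0.871%. The distributions overlapped widely, and all 3 quartiles were higher in the cKO library. In microglia the medians were 0.155% and 0.354%, so the median of control members lay above that of cKO microglia.

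Isg15, a ubiquitin-like protein, was at 33.8 CPM (18.5 to 56.8) in the control library and 175 CPM (128 to 235) in the cKO library, a log2 ratio of 2.37 (1.48 to 3.35). It had 9 control and 18 cKO members with a UMI, and 1 cKO member held 16 of the 45. Its ratio in the smaller set was 0.90 (-0.35 to 2.22), an interval that includes 0. Irf7, the factor that amplifies the response, was at 24.2 and 97.5 CPM, a ratio of 2.01 (0.90 to 3.23), and 1.32 in the smaller set. Ifi211, a nucleic acid sensor of the same family as Ifi204, was at 24.2 and 101 CPM, with 2.07 (0.97 to 3.29) in all and 2.19 (0.84 to 3.78) in the smaller set. Ifi204 was at 77.3 and 226 CPM, with 1.55 and 0.95. In the smaller set Isg15, Irf7 and Ifi211 fell below the minimum of 30 UMIs, and the ratio was smaller there than in all members for Isg15, Irf7 and Ifi204 but not for Ifi211.

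Against microglia, 10 of 42 interferon genes tested were at least 2-fold higher in members in both libraries and none was lower. Over all genes tested these shares were 2.7% and 6.41%. The median log2 ratio of members over microglia was 1.21 in control and 0.58 in cKO. Ifitm3, a membrane protein that restricts virus entry, stood at 790.2 CPM against 118 CPM in the control library and 1825 against 344 CPM in the cKO library. Bst2 (tetherin) stood at 799.9 CPM against 156 CPM in the control library and 1150.2 against 433 CPM in the cKO library, and Ifi27l2a at 626 CPM against 45.6 CPM in the control library and 1349 against 535 CPM in the cKO library. The gap between the classes was smaller in the cKO library for each of these 3 genes, and whether the gaps differ was not tested.

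**Figure D4:**
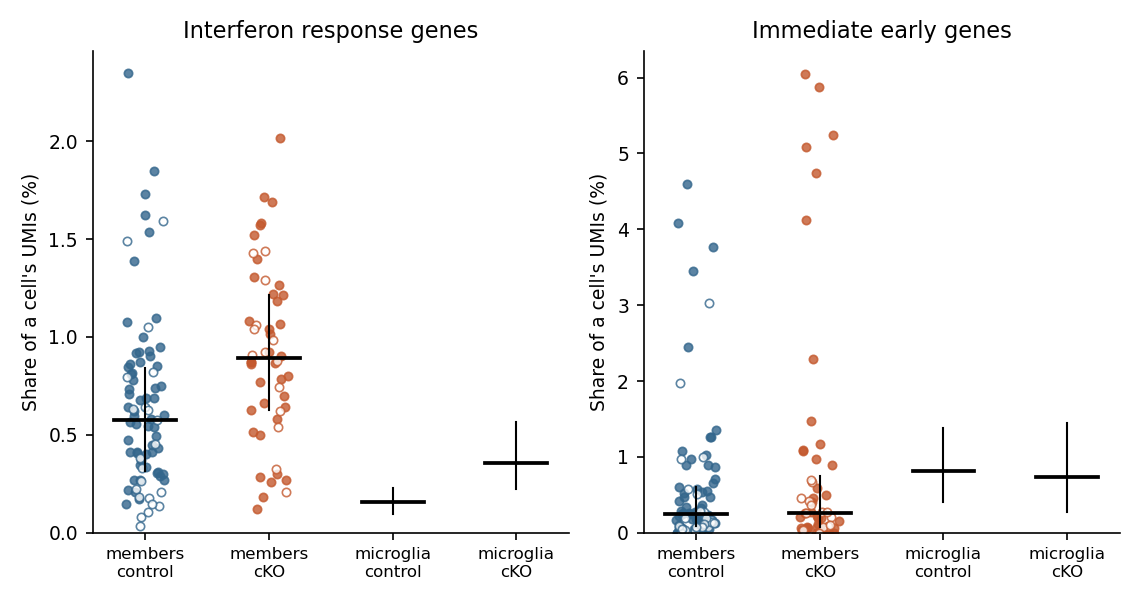
Share of each cell's UMIs (%) from interferon response genes (left) and immediate early genes (right). Points are border-associated macrophages (filled, none of 5 other-cell genes; open, 1 of them), the thick bar is the median and the vertical line spans the quartiles, also for microglia, whose cells are not drawn. The interferon medians of members are 0.578% in control and 0.891% in cKO. The immediate early medians, 0.249% and 0.258%, are close, with 6 control and 7 cKO cells at 2% or more.

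The bases before the start of 2 interferon genes and 2 immediate early genes of the lists are shown because a motif of the pathway lies in them. They are RefSeq promoter windows on GRCm38.p6, written 5' to 3' on the strand of the gene and ending at the base before the start. Capitals mark an ISRE-type motif (GAAA, any 2 bases, then GAAA) or the cAMP response element TGACGTCA, each searched on both strands. Isg15 (200 bases, chr4:156200819-156201018 on the minus strand) has 3 overlapping matches, and Ifi211 (200 bases, chr1:173913047-173913246 on the minus strand) has 1. Dusp1 (250 bases, chr17:26508473-26508722 on the minus strand) has 1 cAMP response element, and Ppp1r15a (250 bases, chr7:45526269-45526518 on the minus strand) has 1 and, farther from the start, an ISRE-type match.
Isg15: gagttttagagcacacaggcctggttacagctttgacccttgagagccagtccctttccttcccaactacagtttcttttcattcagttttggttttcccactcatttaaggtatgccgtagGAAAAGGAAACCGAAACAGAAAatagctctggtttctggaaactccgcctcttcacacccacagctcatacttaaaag
Ifi211: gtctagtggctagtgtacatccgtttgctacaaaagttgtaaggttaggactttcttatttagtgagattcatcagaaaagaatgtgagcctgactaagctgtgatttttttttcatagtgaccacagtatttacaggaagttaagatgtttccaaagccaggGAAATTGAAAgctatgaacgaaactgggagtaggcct
Dusp1: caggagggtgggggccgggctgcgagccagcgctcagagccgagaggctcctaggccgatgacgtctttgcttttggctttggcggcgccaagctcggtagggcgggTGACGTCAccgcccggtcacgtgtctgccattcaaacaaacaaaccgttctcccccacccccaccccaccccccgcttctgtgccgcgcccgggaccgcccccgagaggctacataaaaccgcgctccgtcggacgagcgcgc
Ppp1r15a: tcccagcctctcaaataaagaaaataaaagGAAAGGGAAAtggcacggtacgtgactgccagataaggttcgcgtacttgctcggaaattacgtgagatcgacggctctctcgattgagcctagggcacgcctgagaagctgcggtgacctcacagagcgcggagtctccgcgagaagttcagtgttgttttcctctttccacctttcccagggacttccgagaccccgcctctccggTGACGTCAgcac

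Of the 26 interferon genes that passed the minimum, 18 had a window in the table, and 7 of these (38.9%) held the ISRE-type motif in the 250 bases before the start, namely Bst2, Gbp7, Ifi211, Irgm1, Isg15, Slfn5 and Trim30a. Of all 27025 genes with a window, 3.46% held it. Of the 19 immediate early genes that passed, 17 had a window and 3 of these (17.6%) held the cAMP response element, namely Btg2, Dusp1 and Ppp1r15a, against 1.77% of all genes. A match is a description of the letters in this window, and says nothing of binding in these cells.

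Immediate early genes, which are transcribed within minutes of a stimulus or of cell dissociation, summed to more in cKO members. Of 19 that passed the minimum, 10 were at least 2-fold higher and none lower, with a median log2 ratio of 1.03. In the smaller set 9 of 19 were higher, with a median of 0.99. Over all genes 7.04% and 3.97% were higher in the 2 sets, with medians of 0.11 and 0.058. In microglia 2 of the same 19 passed, with a median of 0.29, beside 2.18% higher over all genes. The summed level was 5312 CPM in control and 9974 CPM in cKO members, against 9751 and 11359 CPM in microglia.

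This difference was carried by few cells. The median share in a cell's UMIs was 0.249% in control and 0.258% in cKO members. The members at 2% or more, 6 control and 7 cKO cells, held 36.4% and 61.1% of the list's UMIs, and over the other members the sum was 3560.3 and 4421 CPM. After thinning, 80.5% of control and 75% of cKO members had a UMI of the list. Unlike the interferon genes, the middle of the class was thus at about the same level in both libraries.

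Nr4a1, an orphan nuclear receptor, was at 24.2 CPM (11.6 to 44.4) in the control library and 136 CPM (95.1 to 189.8) in the cKO library. It was found in 7 of 82 and 8 of 52 members, with 13 of the 35 cKO UMIs in 1 cell, and had a log2 ratio of 2.50 (1.45 to 3.68). Klf4 and Klf2, zinc finger factors, were at log2 1.93 (1.27 to 2.62) and 1.68 (1.32 to 2.06), and at 1.28 and 0.63 in the smaller set. Ppp1r15a (GADD34), which restores translation after stress, was at 62.8 and 238 CPM, a ratio of 1.92 (1.24 to 2.64) and 1.81 in the smaller set. Dusp1, a phosphatase of MAP kinases, was at 1.59 (1.24 to 1.95) and 1.50. Ccn1, a secreted matrix protein, was at 5 and 34 UMIs in the smaller set, a log2 ratio of 3.08 (1.72 to 4.79), the highest of those with 20 UMIs and 50 CPM in 10 or more cells of a library.

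Cdkn1a, the gene of p21, an inhibitor of the cell cycle (GRCm38 chr17:29090976-29100727, plus strand), was at 9.67 CPM (2.63 to 24.7) in the control library and 316 CPM (251 to 393) in the cKO library. It had 4 UMIs in 3 of 82 control members and 81 UMIs in 12 of 52 cKO members, with at most 17 in a cell. The log2 ratio was 5.03 (3.62 to 6.94) in all members and 4.77 (2.84 to 7.86) in the smaller set, where 2 and 44 UMIs were counted. In microglia it was 4.01, from UMIs in 6.69% and 57.3% of cells. The groups of cells overlapped, since 40 cKO members had no UMI. The 6 cells with a UMI among cKO members of the smaller set held 44 of the 81 UMIs and had immediate early genes at 1.08 to 6.05% of UMIs. The other 6 held 37 and had them at 0.0953 to 0.697%, and 5 of these had other-cell markers at 1% of UMIs or more. The 12 cells with Cdkn1a had a median of 6062 UMIs against 2913.5 in the other cKO members, and after thinning 1.22% of control and 9.62% of cKO members had a UMI. Of 5 p53 targets that passed the minimum, Cdkn1a was the 1 past 2-fold, Bax was at 0.95 (0.27 to 1.64) and Mdm2, also a direct target of p53, at -0.89 (-2.17 to 0.24). Of 3 that passed the minimum in the smaller set, 1 was past 2-fold, with a median of 0.93 beside 0.53 in all members. Over all genes 7.04% were 2-fold higher in all members and 3.97% in the smaller set.

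Of 13 chemokines that passed the minimum, 5 were at least 2-fold higher and 1 lower in cKO members. Over all genes 7.04% were higher and 8.77% lower, so the lower count is near that share. In the smaller set 4 were higher and 1 lower of 11, beside 3.97% and 2.55% over all genes. Ccl2 and Ccl7, which attract monocytes through CCR2, were at 162 and 456 CPM and at 213 and 526 CPM, with log2 ratios of 1.49 (1.05 to 1.95) and 1.31 (0.91 to 1.71). They came from few cells, 16 and 12 members for Ccl2 and 18 and 11 for Ccl7, and the highest cKO cell of each gene held 38 of 117 Ccl2 and 51 of 135 Ccl7 UMIs. With every cell thinned to 1000 UMIs the Ccl2 ratio was 0.36 and the Ccl7 ratio -0.098, so the Ccl7 difference did not hold under thinning. Thinning lowers the weight of deep cells and also leaves fewer UMIs, and the part of each was not tested. Cxcl2, which recruits neutrophils, had 2 UMIs in 1 control cell and 42 in 5 cKO cells. Ccl4 was lower, at 229.6 and 81.9 CPM, a ratio of -1.49 (-2.24 to -0.79) and -1.87 (-2.65 to -1.16) in the smaller set, with UMIs in 20 and 6 members. Ccl3 was at 1.09 (0.52 to 1.67). Ccr1, a receptor of Ccl3 and Ccl7, was at 74.9 and 230.0 CPM, a ratio of 1.62 (0.97 to 2.30), but at -0.16 among members with at most 1 microglial gene.

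Of 33 border macrophage genes outside the rule that passed, 5 were at least 2-fold higher and none lower in cKO members, with a median of 0.55, beside 7.04% higher and a median of 0.11 over all genes. In the smaller set 2 were higher and 1 lower, beside 3.97% and 2.55% over all genes, with a median of 0.27. The 5 were Mgl2, Clec10a, Cp, Ifitm3 and Clec4a1. Mgl2 was at 208 CPM (166 to 257) in the control library and 519 CPM (434 to 615) in the cKO library and Clec10a at 304 CPM (254 to 363) in the control library and 752 CPM (650.1 to 866) in the cKO library. Their ratios were 1.32 (0.92 to 1.73) and 1.31 (0.97 to 1.64) in all members and 1.16 (0.69 to 1.64) and 1.14 (0.76 to 1.53) in the smaller set, where Cp, Ifitm3 and Clec4a1 were below 2-fold (Cp, a copper-carrying ferroxidase, at 0.47). The 7 genes of the rule were at log2 ratios from 0.13 for Ms4a7 to 0.68 for Cd163 in all members. Their median share in a cell's UMIs was 0.714% in control and 0.805% in cKO members. In the smaller set the medians were 0.849% and 0.833%, so the higher level in cKO members was not seen there. Hmox1, which degrades haem, was at 1.01 (0.48 to 1.55) and 0.85.

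MHC class I genes had a median of 0.68 over the 8 that passed, and of 0.17 in the smaller set. In all members 1 of the 8, H2-T23, was past 2-fold higher, beside 7.04% over all genes. B2m, the light chain, was at 1385 and 2242 CPM, and H2-K1 at 594 and 1123 CPM. Their ratios were 0.70 and 0.92, and 0.16 and 0.47 in the smaller set. None of 8 class II genes passed 2-fold in either set, with a median of 0.24 and 0.13 in the smaller set. H2-DMa, which loads peptide onto class II, was the lowest of these at -0.82 (-1.65 to -0.039), and H2-Ab1 was at 0.47 (0.21 to 0.72). None of 19 scavenging genes passed, with a median of 0.36 and 0.093 in the smaller set.

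Cell cycle genes were low in members of both libraries, and 4 of 24 passed the minimum. Hmgb2, H2afz and Pcna were at log2 ratios of 0.14 (-0.58 to 0.84), -0.071 (-0.48 to 0.33) and 0.046 (-0.96 to 1.01). Stmn1, a microtubule regulator that is also high in neural cells, was at 275 and 58.5 CPM, a ratio of -2.24 (-3.12 to -1.45), with 31 of its 114 control UMIs in 1 cell. The list without Stmn1 summed to 648 CPM in control and 604 CPM in cKO members, against 646 and 1819.7 CPM in microglia. The sums in the smaller set were 885 and 637 CPM. There 3 genes passed the minimum, with a median of -0.53, and 1 was 2-fold lower, beside 2.55% over all genes. The microglial sum was thus higher in the cKO library and that of the members was not, a difference between the classes that was not tested.

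**Figure D5:**
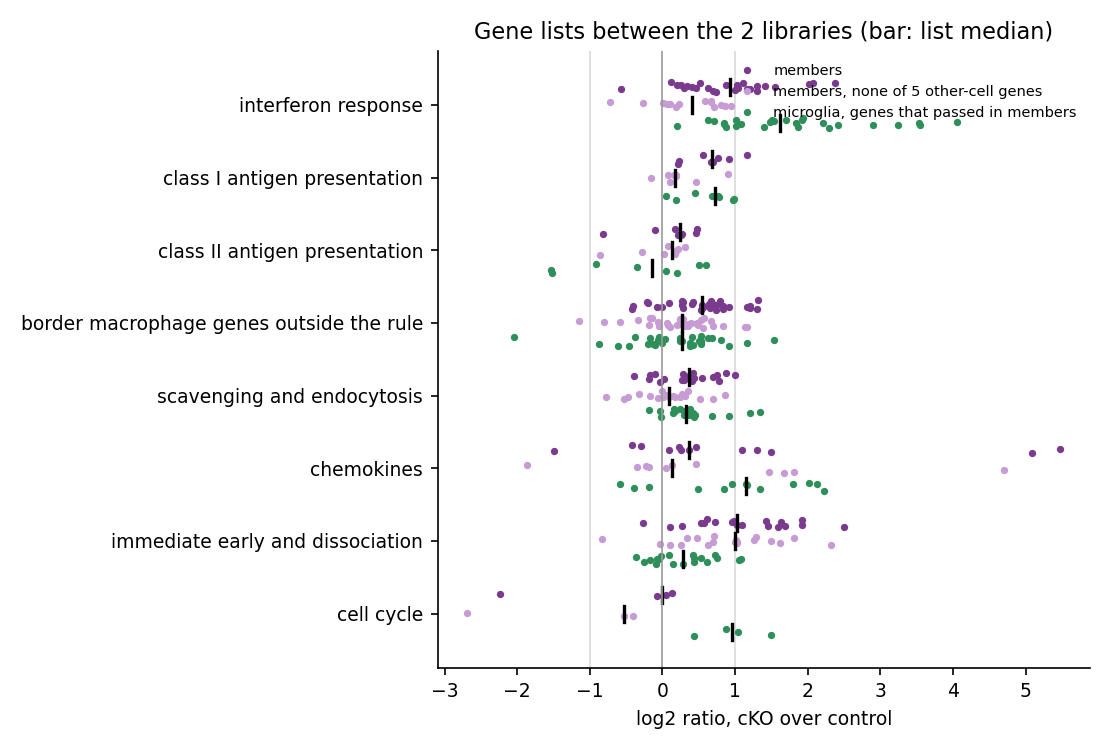
log2 ratio of CPM, cKO over control, for genes of 8 lists that passed the minimum of 30 UMIs in members. Points are genes, bars are list medians, and each list is shown for all members, for members with none of 5 other-cell genes and for microglia. The interferon median is 0.94 in members, 0.41 in the smaller set and 1.62 in microglia, and the immediate early median is 1.03, 0.99 and 0.29.

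Of the plexins, neuropilins and semaphorins, 5 of 28 passed the minimum (the list leaves out Plxnb2). None was 2-fold higher and 2, Sema6d and Sema4d, were lower, beside 7.04% and 8.77% over all genes. Only Nrp1 passed the minimum in the smaller set, at -0.11. Sema4d, a ligand of B-class plexins, was at -1.03 (-2.49 to 0.24), and at -0.36 (-2.32 to 1.43) on 8 and 5 UMIs in the smaller set. Sema6d, a transmembrane semaphorin, was at -1.31 (-2.55 to -0.23) and at -0.36 on 8 and 5 UMIs in the smaller set. Nrp1, a coreceptor of secreted semaphorins and of VEGF, was at 0.40 (-0.082 to 0.88), and against microglia at log2 1.43 and 1.81. Of 17 tested against microglia, 5 were at least 2-fold higher in both libraries and 3 lower, beside 2.7% and 6.41% over all genes tested. The 5 higher ones were Plxna1, Plxna2, Plxnd1, Nrp1 and Sema4a. Their levels in members were low except for Nrp1, at 201 and 265 CPM.

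The medians of other lists in all and in the smaller set are given in turn, beside 0.11 and 0.058 over all genes. Genes of alternative activation and of tumour-associated macrophages had a median of 0.85 over 11 genes and 0.11 over 5. Complement, a list that also holds Crip1, which is not a complement gene, had 0.40 and 0.081. Lineage transcription factors had 0.63 and 0.25, and iron handling 0.57 and 0.17. Lysosomal genes had 0.18 and 0.13, and heat shock genes -0.18 and 0.27. Of 7 cytokine and NF-kB feedback genes, 2 were at least 2-fold higher and 1 lower, beside 7.04% and 8.77% over all genes. Their median was 0.37. In the smaller set 1 of 4 was higher and none lower, beside 3.97% and 2.55%, with a median of 0.78. The 2 higher in all members were Nfkbiz, at 1.82 (0.93 to 2.77) and 1.82 in the smaller set, and Nfkbia. Nfkbia, the inhibitor that NF-kB induces, was at 1.18 (0.83 to 1.53) and 0.69.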

How the data were processed

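RNA was measured in 1 control and 1 cKO library. The values are raw UMI counts, deposited by the authors as 1 matrix a library. Per the submitters' processing notes, Cell Ranger 7.1.0 and mm10 were used. How intronic reads were treated is not stated in the labels. The control matrix holds 10942 barcodes with at least 500 UMIs and the cKO matrix 2377349 unfiltered ones, so the same filters were set on both. Of 32285 gene identifiers, 99.6% are in GENCODE vM21, used for coordinates.

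Members were found by the rule above and counts summed per class and library. Genes needed 30 UMIs over both libraries and UMIs in 5 members. Ratios are log2 of CPM, called at 2-fold, and a class at 0 UMIs was set to 3 counts. Intervals are exact Poisson, binomial or conditional binomial ones (95%). Thinning drew 1000 UMIs from each cell. Scrublet (expected share 6%) came with scanpy 1.11.5, and the rest was done in Python 3.11.15 with pandas 2.3.3, scipy 1.17.1 and numpy 2.4.6. The ratio step was tested on simulated data. Members and gene lists were chosen with earlier results of these data known.

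A rule named the genes. Between libraries it took Plxnb2, Cx3cr1, the rule's genes, up to 4 genes a list, and the 8 ratios at either end where 10 or more members of a library held 20 UMIs and 50 CPM. Against microglia it took the 12 highest and 8 lowest, and within the class Lyve1, class II genes and 5 correlates either way. Other genes, such as Dusp1, Clec4a1 and list genes given against microglia, were chosen after their values were seen. Mitochondrial, ribosomal, haemoglobin, immunoglobulin, unnamed and sex-linked genes were not ranked, and a few genes that the rule took are not reported here. Filters, marker thresholds, doublets, thinning, weighting by cell and minimum UMIs were varied. Leaving out members with any of the 5 other-cell genes, or the deepest member, was added after the data were seen.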

Additional observations from a re-analysis of the deposited data

Results flagged for a closer look

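Stmn1 went opposite ways in the 2 classes between the libraries, at a log2 ratio of -2.24 in border-associated macrophages and 1.04 in microglia. The difference between the classes was not tested. In members with none of the 5 other-cell genes it was at -2.68, from 32 and 4 UMIs.

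The unfiltered cKO matrix holds 1448877 barcodes with 1 to 100 UMIs, which no comparison uses. In them 644 of 3917906 UMIs came from the 7 macrophage genes, from 22 for Cd163 to 222 for Mrc1. Each gene was above the limit that a count of 0 allows (0.766 CPM), which says only that its UMIs are present. Mrc1 was at 56.7 CPM there, against 2226 CPM in cKO members. The control matrix was deposited filtered, so no such level was computed for it.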

How the results depend on the processing

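No paired analysis was possible because each group is 1 library. The border macrophage share of kept cells differed between the libraries by -0.152 to 0.00899 percentage points under 9 alternatives, within the counting interval. The Plxnb2 log2 ratio was -1.59 and stayed negative under every alternative run, reaching -3.11 with selection and values thinned to 1000 UMIs. The count of genes past 2-fold between libraries, 577, was 265 at a mitochondrial limit of 5%, 45 with values thinned and 38 with selection thinned too, 117 and 1852 with minimums of 100 and 10 UMIs, and 115 in members with none of the 5 other-cell genes. Thinning and the higher minimum leave fewer genes to test. Against microglia, 986 genes passed in both libraries, and 573 and 630 under the 2 forms of thinning. The median of border macrophage genes was 0.18 at the 5% limit, 0.17 and 0.16 under thinning and 0.27 without the other-cell genes, in place of 0.55. The interferon median was 1.22 with at most 1 microglial gene, 0.44 with selection and values thinned, and 0.41 without the other-cell genes, in place of 0.94. The immediate early median stayed between 0.64 and 1.56.

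Among named genes, these reversed. With values thinned, Acvrl1 was at -0.93, Ccl7 at -0.098 and Sema6d at 0.66. With selection thinned too, they were at -1.20, -0.16 and 0.21, and Epas1 at -1.52. With at most 1 microglial gene, Ccr1 was at -0.16. Without the other-cell genes, Cxcl12 was at -0.0066, Epas1 at -0.68 and Ly6c1 at -0.17. The cause was not tested. With 82 and 52 cells, genes under about 30 UMIs could not be compared.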
